A study of Homo sapiens with 6 samples.

Results

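Heterogeneous nuclear ribonucleoproteins (hnRNPs) are abundant RNA-binding proteins that coat nascent transcripts and act in splicing, export, stability and translation of mRNA. The 10 hnRNP mRNAs described here were chosen by Ensembl gene ID and not by a cutoff on their values, but with earlier results of these data known. The members are HNRNPA1, HNRNPA2B1, HNRNPA0, HNRNPC, HNRNPD, HNRNPF, HNRNPK, HNRNPL, HNRNPM and HNRNPU. They are 10 of the 60554 genes in the count tables, and all 10 were among the 10788 genes with enough counts to be tested. HNRNPA1 is the known member of the family whose mRNA begins with a terminal oligopyrimidine (TOP) motif, a C at the cap followed by a run of C and T bases. LARP1 binds the cap and the TOP motif of such mRNAs, most of which encode ribosomal proteins and translation factors.

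RNA was sequenced after immunoprecipitation with an anti-LARP1 antibody (LARP1 precipitate, LARP1 IP in the plots, n = 2), after immunoprecipitation with IgG of normal rabbit serum (IgG precipitate, IgG IP in the plots, n = 2, the background) and without immunoprecipitation (Input, n = 2). Every library came from the free 40S part of a sucrose gradient of HCT116 cells, a human colorectal carcinoma line for which the labels name no treatment; the sample descriptions name the same part a 40S monosome fraction. Poly(A) selection was left out, so RNA without a poly(A) tail entered every library. In such pooled RNA, fewer cells that hold a transcript and less of it per cell cannot be told apart. The descriptions call the libraries biological replicates without saying whether the cultures were separate. The p-values refer to the spread between these libraries, which may be technical. That spread was estimated in part over all tested genes, so it is not the spread of each gene alone.

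Library totals ran from 4135463 to 8069554 counts. The 2 genes with the most counts took 26.6% and 21.3% of the LARP1 precipitate libraries (replicates 1 and 2). They took 70.9% and 71.5% for IgG, and 88.6% and 87.9% of Input, so their share differed by group. This left 752862 to 3823470 counts for all other genes, fewest in Input. The 10 hnRNP mRNAs together held 1592 and 1743 counts of Input, 8115 and 5181 of IgG, and 9242 and 5095 with anti-LARP1. Levels are given below in CPM, counts brought to 1 common library size, after TMM scaling, which sets the bulk of genes level between libraries. Levels of different genes are not compared, because the counts are not adjusted for transcript length.

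Start sites were looked at because the TOP motif is defined by the first bases of the mRNA. RefSeq (GRCh38.p14) start sites were at hand for 9 of the 10 genes, 12 sites in all, and HNRNPA1 was not among them. For each gene the window below holds 15 bases before the annotated start and 15 from the start on, 5′ to 3′ on the gene's strand. Capitals mark the unbroken run of C and T that begins at the annotated start, the base after the first 15. A window without capitals has A or G at the annotated start.

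HNRNPA0 (chr5:137754349-137754378, minus strand): cgcgcgttcagcggcCTCTTTgtgtggtgc
HNRNPA2B1 (chr7:26200732-26200761, minus strand): agcggctctagcggcagtagcagcagcgcc
HNRNPC (chr14:21269428-21269457, minus strand): cttcgcctcggcggcagaggagactcgggg
HNRNPD (chr4:82373977-82374006, minus strand): acgcgccgttcttccgtcggccattttagg
HNRNPM (chr19:8444960-8444989, plus strand): gcagcccgttcgctcacacaaagcccagac
HNRNPU (chr1:244864529-244864558, minus strand): gcgccgctcctgcgagaggacgttgcgtgc

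A C at the annotated start followed by at least 4 bases that are each C or T was found at 1 of the 12 sites, that of HNRNPA0, whose run is 6 bases long. The same pattern was at 1429 of all 35116 RefSeq start sites (4.07%), read on the gene's strand at the first base alone. HNRNPF, HNRNPK and HNRNPL have 2 annotated sites each, not printed above, and all of these begin with A or G. Of the first 15 bases, 6 and 8 were C or T for HNRNPF, 0 and 11 for HNRNPK, and 11 and 6 for HNRNPL. HNRNPA0 had 10. The second HNRNPK site had a run of 6 such bases from base 2, and the first HNRNPL site a run of 7 from base 9. The pattern describes the annotation: starts used in HCT116 cells were not measured here, and no match says only that these letters are not at that base.

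HNRNPA1 (ENSG00000135486, chr12:54280726-54287087 in GRCh38.p14, as for all positions below) is a splicing repressor that shuttles between nucleus and cytoplasm. It was the 1 hnRNP mRNA called higher by edgeR in the LARP1 precipitate against both controls. Its level in replicates 1 and 2 was 582 and 591 CPM with anti-LARP1, against 229.8 and 170.2 CPM for IgG and 142 and 149.5 CPM for Input. The counts behind these levels were 5562 and 3187, 2494 and 1720, and 425 and 483. After TMM scaling, both LARP1 precipitate libraries lay far above the other 4, with little difference between the 2 replicates. Scaled to the counts outside the 2 most abundant genes (below), the replicates differed more, and the LARP1 and IgG precipitates overlapped.

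The group means of HNRNPA1 were 587 ± 6.75 CPM with anti-LARP1, 200.01 ± 42.2 CPM for IgG and 146 ± 5.19 CPM for Input (SD, n = 2 each). Against the IgG precipitate this is a 2.93-fold rise, a log2 fold change of 1.55 ± 0.39 (± SE; adjusted p by edgeR = 0.0206). Against Input it is a 4.02-fold rise, a log2 fold change of 2.01 ± 0.39 (± SE; adjusted p by edgeR = 0.00837). The 2 comparisons share the LARP1 precipitate libraries and are not independent.

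**Figure D1:**
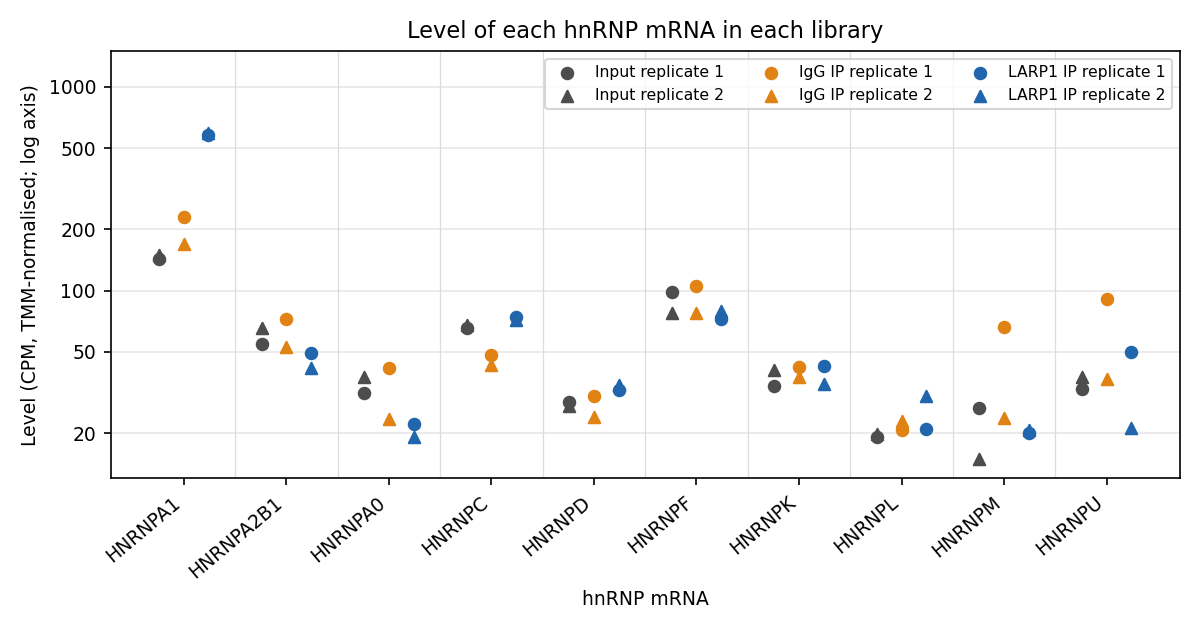
Level of each of the 10 hnRNP mRNAs in each of the 6 libraries, in CPM after TMM scaling on a log axis; circles are replicate 1 and triangles replicate 2. The HNRNPA1 points of the LARP1 IP (582 and 591 CPM) stand apart from its 4 control points, while the points of most other mRNAs lie close together across groups.

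HNRNPA1 was not among the strongest genes of the LARP1 precipitate. Over the IgG precipitate its fold change was larger than that of 90.3% of all tested genes, but 842 of the 921 genes called higher had a larger one, and their median log2 fold change was 2.35. Over Input it was larger than that of 94.9% of tested genes, and 366 of the 499 genes called higher exceeded it, with a median of 2.50.

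The call against the IgG precipitate depended on the control libraries and on the tool. By edgeR it was missed in a fit of the 4 LARP1 precipitate and IgG precipitate libraries (adjusted p = 0.0548) and without IgG replicate 1 (0.0563), IgG replicate 2 (0.113), Input replicate 1 (0.0519) or Input replicate 2 (0.0639), and by DESeq2 without IgG replicate 2 (0.0503), with log2 fold changes from 1.33 to 1.79. It held without LARP1 replicate 1 (0.0270 by edgeR, 0.0117 by DESeq2) or LARP1 replicate 2 (0.0473 and 0.0127), and DESeq2 kept it without IgG replicate 1 (0.00161), Input replicate 1 (0.00575) and Input replicate 2 (0.00568). Against Input it was missed by edgeR without Input replicate 1 (log2 fold change 1.997, adjusted p = 0.138) or Input replicate 2 (2.05, adjusted p = 0.185), where no gene of the whole table passed; DESeq2 called it in both.

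Of the 9 other hnRNP mRNAs, DESeq2 called 0 in any of the 3 comparisons. Over all 10788 genes it called 891 higher and 248 lower over the IgG precipitate, and 535 and 197 over Input. In the IgG precipitate against Input it called 19 and 19. DESeq2 gave no adjusted p for 1046 of the genes over Input and for 8366 in the IgG precipitate against Input. Those genes could not be called. By edgeR, 0 of the 9 were called in either direction in any of the 3 comparisons. At an unadjusted p under 0.05, HNRNPM was lower with anti-LARP1 than with IgG and higher with IgG than in Input, and 0 of the 9 passed between anti-LARP1 and Input. In those comparisons 2713, 725 and 2261 of all 10788 genes were under that p. The count of 1 higher member of 10 against the IgG precipitate stands beside 8.54% of all tested genes called higher, and 0 lower members beside 2.29% called lower. Against Input the 1 higher member stands beside 4.63% and the 0 lower members beside 1.52%. Above both controls, HNRNPA1 is 1 of 10 members, beside 4.37% of all tested genes. With 10 members, these shares do not set the family as a whole apart from other genes.

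The median log2 fold change of the 9 other mRNAs was -0.26 over the IgG precipitate (range -1.14 to 0.68) and 0.02 over Input (range -0.74 to 0.39), against -0.06 and 0.03 for all tested genes. Fold changes are relative to the bulk of genes. Over the IgG precipitate 3 of the 9 were above 0 and 6 below, and over Input 5 were above and 4 below.

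**Figure D2:**
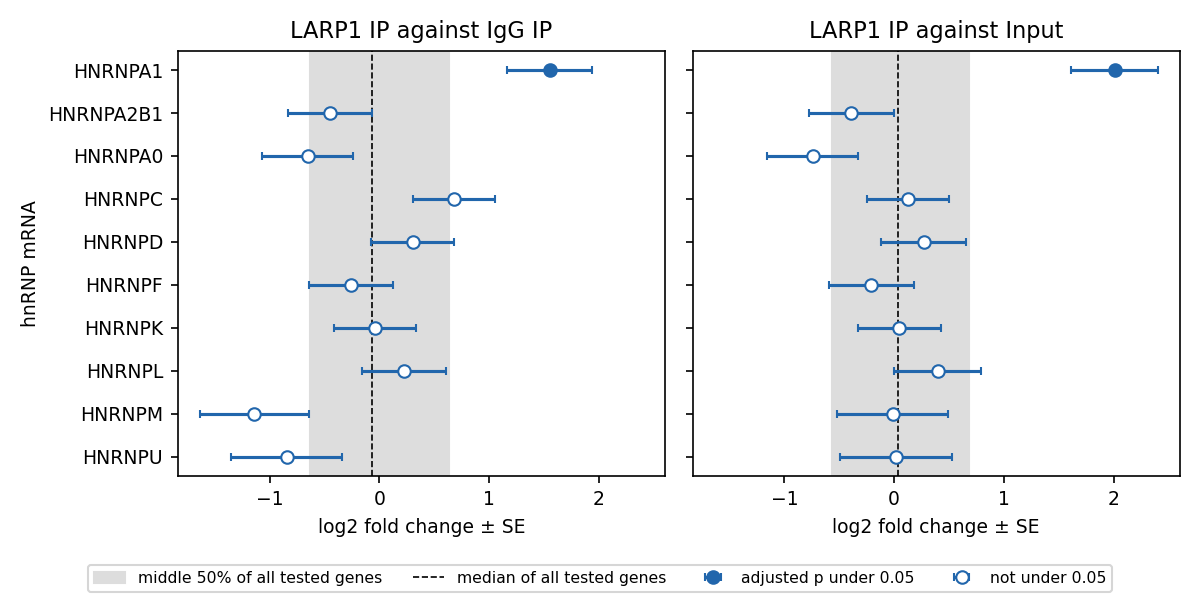
Log2 fold change of each hnRNP mRNA (left, LARP1 IP over IgG IP; right, LARP1 IP over Input), with bars of 1 SE from the edgeR fit of all 6 libraries; filled points have an adjusted p under 0.05. The dashed line is the median and the grey band the middle 50% of all 10788 tested genes. HNRNPA1 lies to the right of the band in both panels and the 9 others lie nearer to it or within it.

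HNRNPA2B1 (ENSG00000122566, chr7:26189927-26200746), the close relative of HNRNPA1 that acts in splicing and RNA transport, stood at 49.7 and 41.9 CPM in the LARP1 precipitate, against 72.6 and 52.9 CPM for IgG and 54.5 and 65.6 CPM for Input. Both LARP1 precipitate values were below all 4 control values. The log2 fold changes were -0.45 ± 0.38 over the IgG precipitate and -0.39 ± 0.39 over Input (± SE; adjusted p by edgeR = 0.503 and 0.615), so neither difference passed the test.

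HNRNPA0 (ENSG00000177733, chr5:137745651-137754363), which binds AU-rich elements, is the member whose annotated start begins with CTCTTT (above). It stood at 22.2 and 19.1 CPM in the LARP1 precipitate, against 41.7 and 23.5 CPM for IgG and 31.5 and 37.8 CPM for Input. Here too the LARP1 precipitate libraries were below every control library. Its log2 fold changes of -0.65 ± 0.41 over the IgG precipitate and -0.74 ± 0.42 over Input did not pass (± SE; adjusted p by edgeR = 0.350 and 0.335), and over Input its value was the lowest of the 10 mRNAs.

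HNRNPC (ENSG00000092199, chr14:21209147-21269442), which binds tracts of U and forms the core of the hnRNP particle, stood at 74.4 and 71.6 CPM in the LARP1 precipitate, against 48.1 and 43.0 CPM for IgG and 65.6 and 68.1 CPM for Input. The 3 groups did not overlap, and the IgG precipitate was the low one. Its log2 fold change was 0.68 ± 0.37 over the IgG precipitate, next below HNRNPA1, and 0.13 ± 0.37 over Input (± SE; adjusted p by edgeR = 0.276 and 0.891). In the IgG precipitate against Input it was -0.55 ± 0.37 (± SE; adjusted p by edgeR = 0.823).

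HNRNPD (ENSG00000138668, chr4:82352498-82373991), also known as AUF1 and acting in the decay of AU-rich mRNAs, ranged from 32.5 to 34.5 CPM in the LARP1 precipitate and from 24.05 to 30.3 CPM over the 4 control libraries. Its log2 fold changes were 0.30 ± 0.38 over the IgG precipitate and 0.27 ± 0.38 over Input (± SE; adjusted p by edgeR = 0.669 and 0.745). HNRNPL (ENSG00000104824, chr19:38836370-38852347), which binds CA repeats, stood at 21.0 and 30.3 CPM in the LARP1 precipitate, against 19.1 to 23.1 CPM in the controls. LARP1 precipitate replicate 1 lay within that range and replicate 2 above it, with log2 fold changes of 0.22 ± 0.39 and 0.39 ± 0.40 (± SE; adjusted p by edgeR = 0.772 and 0.620).

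HNRNPF (ENSG00000169813, chr10:43385618-43409186), a splicing regulator that binds G tracts, ranged from 72.5 to 79.8 CPM in the LARP1 precipitate and from 77.7 to 104.8 CPM in the controls, with overlap between the groups. HNRNPK (ENSG00000165119, chr9:83968083-83980615), a protein that binds C-rich RNA, ranged from 34.9 to 42.6 CPM in the LARP1 precipitate and from 34.1 to 42.0 CPM in the controls. HNRNPK thus had nearly the same range in all groups, with log2 fold changes of -0.04 ± 0.38 over the IgG precipitate and 0.05 ± 0.38 over Input (± SE; adjusted p by edgeR = 0.959 and 0.967). For HNRNPF they were -0.26 ± 0.38 and -0.21 ± 0.39 (± SE; adjusted p by edgeR = 0.725 and 0.810).

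HNRNPM (ENSG00000099783, chr19:8444975-8489114), a splicing regulator of GU-rich sites, had the lowest fold change of the family over the IgG precipitate, and that value rested on IgG replicate 1. Its level was 20.1 and 20.8 CPM in the LARP1 precipitate, against 66.3 and 23.6 CPM for IgG and 26.4 and 14.9 CPM for Input. The first IgG library was thus far above the other 5. The log2 fold change over the IgG precipitate was -1.14 ± 0.50 (± SE; adjusted p by edgeR = 0.171). It was -0.21 without IgG replicate 1 (edgeR adjusted p = 0.916) and -1.68 without IgG replicate 2 (0.0346, past the threshold; -1.72 and 0.0375 by DESeq2). Over Input it was -0.01 ± 0.51 (± SE; adjusted p by edgeR = 0.994).

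HNRNPU (ENSG00000153187, chr1:244850297-244864543), a nuclear scaffold protein that binds chromatin and RNA, varied most within the LARP1 precipitate. It stood at 50.01 and 21.2 CPM there, against 91.4 and 36.8 CPM for IgG and 32.8 and 37.8 CPM for Input. The first library was the higher in both immunoprecipitates, and the groups overlapped. The log2 fold change over the IgG precipitate was -0.84 ± 0.51 (± SE; adjusted p by edgeR = 0.327), with -0.04 and -1.31 on leaving out IgG replicate 1 or 2, and -1.60 and -0.35 on leaving out LARP1 replicate 1 or 2, none of these 4 past the threshold. Over Input it was 0.02 ± 0.51 (± SE; adjusted p by edgeR = 0.991), with -0.73 and 0.52 on leaving out LARP1 replicate 1 or 2; its sign changed in 13 of the 21 alternatives.

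**Figure D3:**
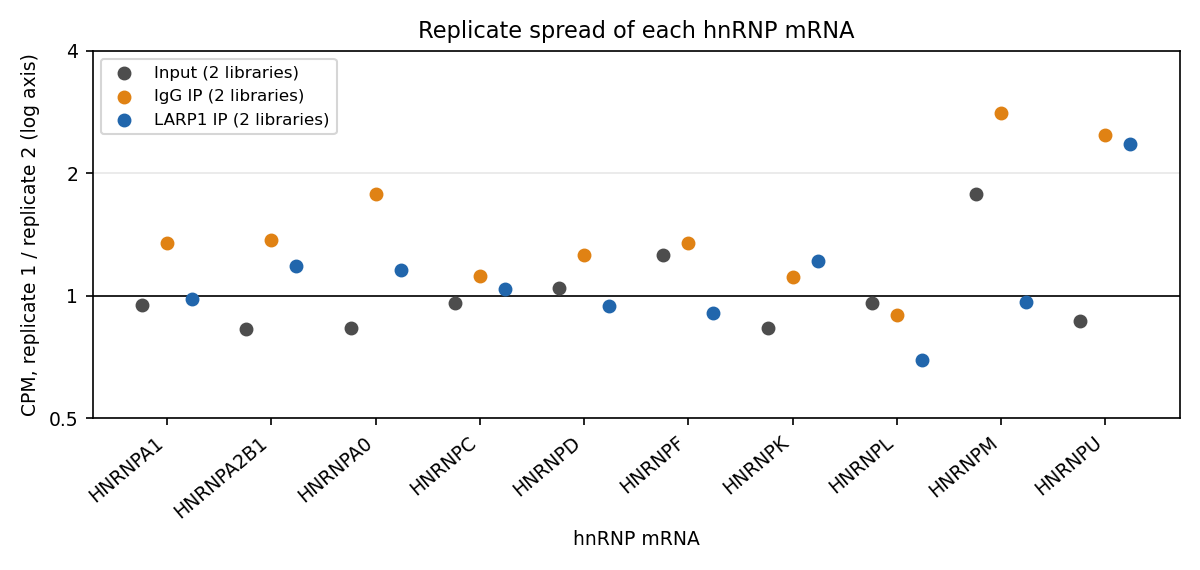
Ratio of the CPM of replicate 1 to that of replicate 2 for each hnRNP mRNA in each group, on a log axis; a point at 1 means equal replicates. HNRNPM (2.81) and HNRNPU (2.48) have the highest ratios in the IgG IP, and HNRNPU (2.36) the highest in the LARP1 IP.

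The ratio of replicate 1 to replicate 2 for HNRNPA1 was 0.95 for Input, 1.35 for IgG and 0.98 with anti-LARP1. In the IgG precipitate it was above 1 for all of the 10 mRNAs but HNRNPL (0.90), with HNRNPM and HNRNPU the highest at 2.81 and 2.48. Of the 3059 genes that averaged 10 CPM or more, 4.12% had an IgG ratio at least as high as HNRNPM and 5.62% at least as high as HNRNPU, and the median was 1.06. HNRNPM and HNRNPU are therefore among the genes with the higher ratios in the IgG precipitate but are not alone there. Genes that differed as much in the other direction were not counted.

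Members whose libraries did not overlap between groups were counted in each direction beside the share of all tested genes. Between the LARP1 precipitate and the IgG precipitate, 3 members were higher without overlap (HNRNPA1, HNRNPC and HNRNPD), beside 27.3% of tested genes, and 3 lower (HNRNPA2B1, HNRNPA0 and HNRNPM), beside 25.9%. Against Input 4 were higher (HNRNPA1, HNRNPC, HNRNPD and HNRNPL), beside 28.8%, and 2 lower (HNRNPA2B1 and HNRNPA0), beside 22.8%.

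The share of HNRNPA1 among the counts of the 10 mRNAs does not depend on how libraries are scaled to each other. It was 60.2% and 62.6% with anti-LARP1, against 30.7% and 33.2% for IgG and 26.7% and 27.7% for Input. The Wilson 95% intervals, which cover counting error only, were, in the same order, 59.2% to 61.2%, 61.2% to 63.9%, 29.7% to 31.7%, 31.9% to 34.5%, 24.6% to 28.9% and 25.7% to 29.9%. HNRNPA1 thus made up most of the summed counts of these 10 mRNAs after LARP1 immunoprecipitation and less than 35% in each control library. Other hnRNP mRNAs are not in this sum.

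The mean share was 61.4% ± 1.68 with anti-LARP1, 31.97% ± 1.74 for IgG and 27.2% ± 0.72 for Input (SD, n = 2 each). The differences of 29.4 and 34.2 percentage points are many times the spread between replicates. An exact two-sided permutation test gave p = 0.333 for each, the smallest that 2 libraries against 2 allow. Without HNRNPA2B1 in the sum the means were 64.4%, 35.5% and 30.6%.

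**Figure D4:**
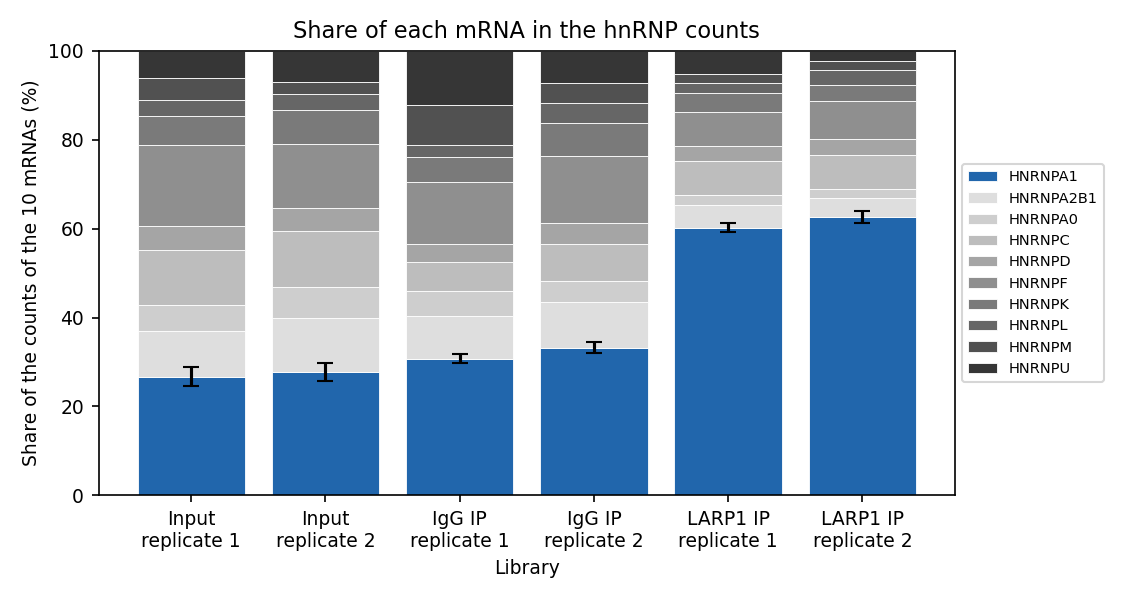
Share of each mRNA in the summed counts of the 10 hnRNP mRNAs, 1 bar per library; blue is HNRNPA1 with its Wilson 95% interval, and the greys are the other 9 in the order of the legend. HNRNPA1 takes 60.2% and 62.6% of the LARP1 IP bars and 26.7% to 33.2% of the 4 control bars.

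The rise of HNRNPA1 relative to each single family member was also read from count ratios within libraries. Over the IgG precipitate the ratio of HNRNPA1 to another member was larger in the LARP1 precipitate by 1.85-fold (HNRNPC) to 5.75-fold (HNRNPM). Over Input it was larger by 3.10-fold (HNRNPL) to 6.73-fold (HNRNPA0). For each of the 9 members the ratio in either LARP1 precipitate library exceeded that in each of the 4 control libraries; the smallest log2 difference between single libraries was 0.71, for HNRNPC over the IgG precipitate.

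Scaling moved the fold changes of all members together. Scaled by library total, where the median gene moved over Input from 0.03 to 1.75 on the log2 scale, 9 of the 10 mRNAs were called higher than Input, all but HNRNPA0, as were 6550 of all 10788 genes tested. Scaled by the total outside the 2 most abundant genes, where the median gene over the IgG precipitate moved to -1.28, HNRNPA1 was at 0.35 and not called (edgeR adjusted p = 0.428), and HNRNPA2B1, HNRNPA0, HNRNPF, HNRNPK, HNRNPM and HNRNPU were called lower, as were 4185 of the 10962 genes tested under it. With that scaling HNRNPA1 missed the threshold against Input as well (log2 fold change 1.04, edgeR adjusted p = 0.0765), and HNRNPA0 was called lower (-1.69, adjusted p = 0.0468), as were 1270 of all 10962 genes.

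In CPM of the counts outside those 2 genes alone, HNRNPA1 stood at 1455 and 979 with anti-LARP1, 1163 and 748 for IgG, and 565 and 620.3 for Input. On that scale the LARP1 precipitate and the IgG precipitate overlapped, while both lay above Input. In the fit and all 21 alternatives, HNRNPA1 had a larger fold change than each of the 9 others over the IgG precipitate and over Input. The distance of HNRNPA1 from the median of the 9 others was 1.76 to 1.87 on the log2 scale over the IgG precipitate and 1.88 to 2.12 over Input. The alternatives reuse the same libraries, and a scaling factor shifts all genes of a library alike. This order therefore restates the count ratios within libraries given above and is not separate support.

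**Figure D5:**
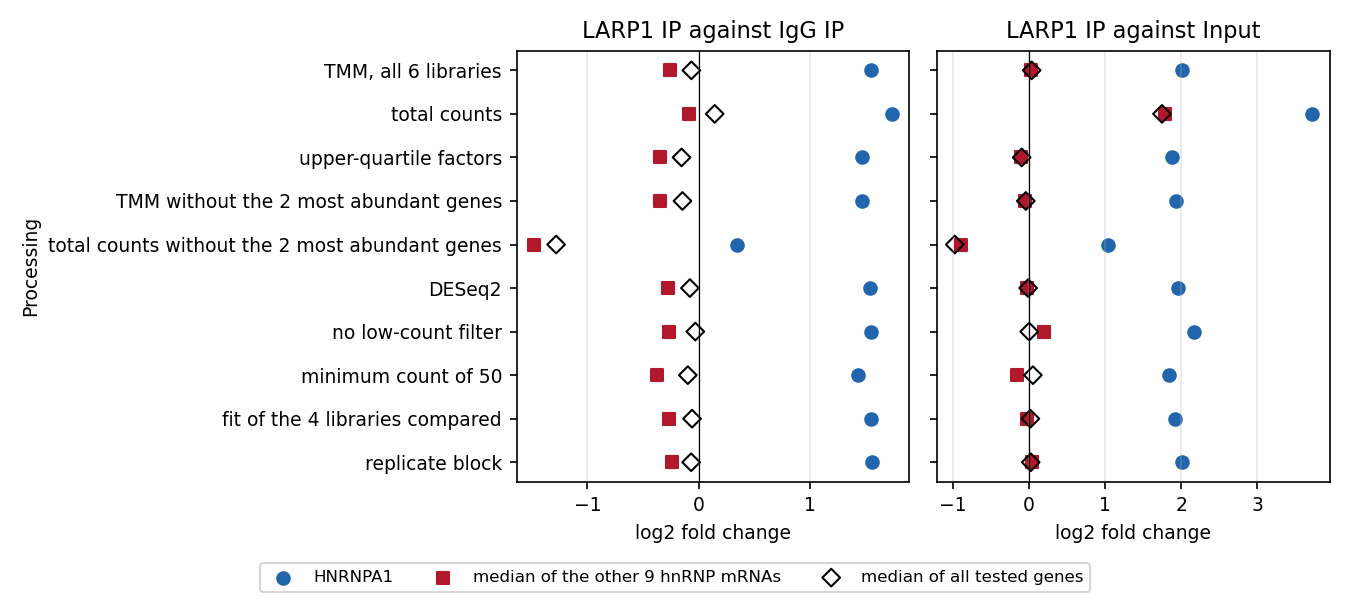
Log2 fold change of HNRNPA1 (blue circles), the median of the other 9 hnRNP mRNAs (red squares) and the median of all tested genes (open diamonds), with LARP1 IP over IgG IP on the left and LARP1 IP over Input on the right, for 10 ways of processing the counts with all libraries of the comparison. The circles and squares shift together, and HNRNPA1 stays to the right of the median of the other 9 by 1.803 to 1.824 (left) and 1.931 to 2.004 (right). All rows reuse the same libraries.

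The IgG precipitate was set against Input to see what the control serum recovered. By edgeR 0 of the 10 mRNAs passed, beside 0% of all tested genes in either direction. At an unadjusted edgeR p under 0.05 there was 1 of the 10 (HNRNPM) and 725 of all genes. DESeq2 called 0 of the 10, beside 19 genes higher and 19 lower of all 10788. It gave no adjusted p for 8366 of those genes, which could thus not be called, while each of the 10 mRNAs had one. HNRNPA1 had a log2 fold change of 0.46 ± 0.38 (± SE; adjusted p by edgeR = 0.865), and both IgG libraries lay above both Input libraries. HNRNPM and HNRNPU had the highest values, 1.13 ± 0.51 and 0.86 ± 0.51 (± SE; adjusted p by edgeR = 0.738 and 0.787), with overlapping libraries. Their values were 0.20 and 0.06 when IgG replicate 1 was left out, below HNRNPL (0.25) and HNRNPA1 (0.23). Without overlap, 2 members were higher in the IgG precipitate (HNRNPA1 and HNRNPL), beside 19.2% of tested genes, and 1 lower (HNRNPC), beside 19.3%. With total counts all 10 were called higher, as were 5808 of all 10788 genes, and the median of all tested genes was 1.51.

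The genes most like HNRNPA1 over the 6 libraries lay outside the family. Likeness was the distance between profiles of log2 CPM centred on each gene's mean, over the 3058 other genes that averaged 10 CPM or more. The nearest were ENSG00000128272.14 (distance 0.468) and ENSG00000166451.13 (0.496), whose log2 fold changes were 1.45 and 1.77 over the IgG precipitate and 1.76 and 1.92 over Input; the files pair no symbol with these IDs. Within the family the nearest was HNRNPD at 1.803, which ranked 1033 of the 3058, and the farthest was HNRNPA0 at 2.90. The libraries share their depth and scaling, so the distances are a description.

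Near-identical copies can share reads with a gene. RefSeq lists 75 pseudogenes by name for HNRNPA1, 9 for HNRNPC, 5 for HNRNPK, 2 each for HNRNPD, HNRNPL and HNRNPM, 1 each for HNRNPF and HNRNPU, and 0 for HNRNPA2B1 and HNRNPA0. How reads mapping to several places were counted is not given in the sources used here, so the level of HNRNPA1 in particular is uncertain by an unknown amount; the part of this in the differences between groups was not tested.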

How the data were processed

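The members and lists were chosen with earlier results of these data known. The authors deposited raw read counts per gene, 1 file per library, with no normalization. The submitters' processing notes list featureCounts, Subread 1.20.6, TopHat2 2.1.1, Bowtie2 and CASAVA 1.8, and build GRCh38; for annotation release and strand setting, no value is given in the sources used here. Genes were kept by filterByExpr (minimum count 10), which kept 99.7% to 99.9% of the counts. Counts were tested with edgeR 4.0.16 in R 4.3.3 (TMM, quasi-likelihood fit of all 6 libraries, group as the term, 3 residual degrees of freedom), with Benjamini-Hochberg adjustment over all genes tested in a comparison and a threshold of 0.05. The SE is the log2 fold change over the square root of F, so it too rests on a spread shared in part between genes. DESeq2 1.42.0 was an alternative. The fit was also run on counts simulated from the mean levels, scaling and spread that it had estimated. That run could not test the choice of scaling. Replicates differed by more than sampling noise in each group, so none was a duplicate. All 10 members are named, by the symbols their choice gave. Gene positions and start sites are from RefSeq, GRCh38.p14, matched by symbol. That table pairs no Ensembl ID with a symbol (0 of 59792 genes), so the 7 other lists (other hnRNPs, splicing factors, other TOP mRNAs, cell type markers), fixed by symbol, were not applied and the cell line's markers were not analysed here.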

Additional observations from a re-analysis of the deposited data

How the results depend on the processing

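Total counts called 9 members higher against Input (6550 of all 10788 genes) and 10 higher in the IgG IP against Input (5808 genes). Called with the sign turned were HNRNPA2B1 (1.34), HNRNPF (1.51) and HNRNPM (1.72) over Input. In the IgG IP over Input these were HNRNPA0 (1.45), HNRNPC (0.97) and HNRNPD (1.495). The median of all genes was 1.75 and 1.51 in the 2 comparisons. Total counts without the 2 most abundant genes called 6 members against the IgG IP, all lower (4185 of all 10962 genes were lower and 333 higher), and gave HNRNPA1 log2 fold changes of 0.35 and 1.04, neither past the threshold. A fit of the 4 libraries compared called 0 members against the IgG IP (HNRNPA1 1.55), beside 681 genes higher and 80 lower of 10654 tested. Leaving out each library, with a lone library taken to vary as the other groups do, called 0 to 1 members against either control, with HNRNPA1 at 1.33 to 1.79 over the IgG IP and 1.95 to 2.05 over Input; without IgG replicate 2 the 1 member was HNRNPM, lower. HNRNPA1 was called in 15 of 22 settings over the IgG IP (adjusted p 0.000832 to 0.428) and 19 of 22 over Input (4.48e-06 to 0.185). The cause of these changes was not tested. Upper-quartile factors, TMM without the 2 genes, DESeq2 and both other filters changed no member's call.

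The labels give same-numbered libraries no shared batch; their deviations from group means correlated at 0.13 to 0.53. In the fit with a replicate block, HNRNPA1 had log2 fold changes of 1.56 and 2.01, and no member's call changed. Input, with the fewest counts (48 for HNRNPM in replicate 2), has the largest counting error.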
